A study of Mus musculus with 21 samples.

Results

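The collagen family in these hearts comprises 34 genes of the 20960 genes in the count table, namely every gene whose symbol reads Col, a number, a and a number. The hearts came from adult male wild-type mice that received polystyrene nanoplastics, plastic particles of nanometre size, for 8 weeks, or distilled water for the same time. There were 4 nanoplastics mice and 3 control mice. Bulk RNA libraries were made from 3 sections of each heart, of the left ventricle, of the right ventricle and of a section labelled atrial. The labels name no further allele or agent in either group, and the sources used here do not give the dose, the route, the strain or the exact age. The comparisons ask how collagen transcripts differ between exposed and control hearts and between sections of a heart.

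Collagens are proteins of the extracellular matrix whose chains wind around each other into a helix. Fibrillar collagens of types I, III and V form the interstitial fibres between heart muscle cells, type IV collagen forms the sheet-like network of basement membranes around muscle cells and blood vessels, and type VI collagen forms beaded filaments that link the fibres to the basement membrane. In the heart the fibrillar collagens are made mainly by fibroblasts, the type IV chains also by endothelial cells and pericytes, and a gain of type I and type III collagen is the hallmark of fibrosis.

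The libraries held between 413436 and 2439314 counts, except for the right ventricular library of nanoplastics mouse 2, which held 4662 counts, 1462 detected genes and 1 collagen count. In that library 3 counts, the limit that a count of 0 allows, already amount to 643.5 CPM (counts scaled to a common library total), so it was left out of the comparisons within the right ventricle and between sections. It was kept in the sums over a whole heart. The libraries labelled atrial did not hold atrial muscle RNA evenly. Summed over 5 atrial muscle markers, 3 control libraries held 39.9 to 278.5 CPM and the 4 nanoplastics libraries 29.5 to 39830 CPM, the highest in nanoplastics mouse 1. The same libraries held 13960 to 21460 CPM of ventricular muscle markers, against 15380 to 22500 CPM in the right ventricle. The section is therefore named by its label throughout.

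Collagen transcripts were rare. The 34 genes held 2762 of 25424186 counts, or 0.0109%, and 4 of them (Col3a1, Col1a2, Col4a1 and Col4a2) held 1617 counts, or 58.5% of all collagen counts. In all, 20 members reached 10 counts over the 21 libraries and 14 did not. By class, 10 fibrillar genes held 1323 counts, 6 genes of the basement membrane network 736, 4 genes of the beaded filaments 336, 2 short-chain genes 142, 2 multiplexin genes 111, 5 fibril-associated genes 85, 3 transmembrane genes 24 and 2 remaining genes 5. Decorin (Dcn), the fibroblast proteoglycan that binds collagen fibrils, alone had 26105 counts, 9.45 times as many as all collagens together.

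Levels of different genes were compared per kilobase of their longest annotated transcript, as CPM over all libraries pooled. This scale holds only where counts grow with transcript length, which was not tested for this kit. On that scale Col3a1, the chain of type III collagen, led with 4.08 CPM per kilobase. Col1a2, the minor chain of type I collagen, followed with 3.46 CPM per kilobase. Col4a1, the major chain of the basement membrane network, ranked next with 2.30 CPM per kilobase. Further down, levels were 1.26 for Col6a1, 1.12 for Col4a2 and 1.07 for Col8a1, and those of Col6a2, Col15a1, Col4a5, Col1a1 and Col5a2 lay between 0.612 and 0.825. Dcn lay 53.6 times above Col3a1 per kilobase.

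The other chain of type I collagen, Col1a1, was counted far less often than its partner. The usual type I molecule contains more Col1a1 chains than Col1a2 chains, yet Col1a1 made up 96 of the 567 type I counts, or 16.9% (Clopper-Pearson 95% interval 13.9 to 20.3). Per kilobase Col1a2 lay 5.44 times above Col1a1. The low share was seen in every section, at 13.3% in the left ventricle, 16.9% in the right ventricle and 18.5% in the section labelled atrial. In control and nanoplastics hearts it was 14.3% (interval 10.2 to 19.3) and 18.9% (interval 14.8 to 23.7), and these intervals overlap. Intervals on counts cover counting error only, since the sources used here do not say whether molecular identifiers were used.

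Col4a1 and Col4a2, whose chains combine in the common form of type IV collagen, were also counted unequally. Col4a1 held 67.8% of the counts of the pair (interval 63.8 to 71.7), with 68.6% in control and 67.0% in nanoplastics hearts. Single hearts ran from 66.7% to 70.1% in control and from 55.6% (mouse 4) to 79.6% (mouse 3) in nanoplastics mice. Per kilobase Col4a1 lay 2.06 times above Col4a2. The 2 genes lie head to head on mouse chromosome 8 and are transcribed in opposite directions. Their annotated first exons overlap by 22 bases at chr8:11312805-11312826 (GRCm38.p6, RefSeq), shown here 5′ to 3′ on the plus strand because reads from it cannot be assigned to either gene where strand is not used. Capitals mark the letters GGGCGG, the core of a GC box.

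Col4a1 and Col4a2 first-exon overlap: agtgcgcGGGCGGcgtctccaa

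For the 2 members with the most counts, bases before the start are shown. RefSeq windows (GRCm38.p6) of 250 bases before to 50 bases after the start were at hand for 10 of the 12 members that could be tested in any comparison, and not for Col1a1 and Col5a2. The Col3a1 sequence lies at chr1:45311288-45311537 on the plus strand, the 250 bases before the start, has 35.2% G or C and holds the letters TATAAA, in capitals. The Col1a2 sequence lies at chr6:4505370-4505492 on the plus strand, covers the 123 bases of its window that are outside annotated exons, has 59.4% G or C and holds GGGCGG 2 times, in capitals. It stops short of the Col1a2 start, whereas the Col3a1 sequence reaches its start, so the 2 sequences cover unlike regions. The Col1a2 window also holds CCAAT or its complement ATTGG 2 times, outside the bases shown.

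Col3a1 upstream: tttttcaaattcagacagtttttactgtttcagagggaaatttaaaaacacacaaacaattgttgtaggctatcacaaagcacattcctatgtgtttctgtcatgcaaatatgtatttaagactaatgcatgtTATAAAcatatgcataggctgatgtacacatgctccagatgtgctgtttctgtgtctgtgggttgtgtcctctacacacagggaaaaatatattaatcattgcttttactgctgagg

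Col1a2 upstream: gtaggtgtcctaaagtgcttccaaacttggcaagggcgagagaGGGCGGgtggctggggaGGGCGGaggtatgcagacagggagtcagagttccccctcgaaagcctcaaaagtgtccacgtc

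Of the 10 members with a window, 6 had GGGCGG or its complement CCGCCC there, 4 had CCAAT or its complement ATTGG, and 1, Col3a1, had TATAAA on the strand of the gene. This tally is by gene: Col6a2 has 2 windows, and those of Col4a1 and Col4a2 overlap, so the matches in them are not independent. Counted by window, the shares among 32851 windows of the same length were 35.7%, 37.4% and 8.32%. No letters of one motif overlap those of another in the sequences shown. These matches describe letters and not bound sites.

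With the counts of a mouse's 3 sections summed to a whole heart, the type I chains Col1a2 and Col1a1 had the largest log2 differences of the 12 collagens tested, 0.72 and 1.19 above control in nanoplastics mice, and neither passed the test. In edgeR's robust quasi-likelihood test, with p-values adjusted after Benjamini and Hochberg, 0 of the 12 collagens passed an adjusted p of 0.05, beside 217 of all 8485 genes tested (2.56%, of which 152 higher and 65 lower). Among the 12, 2 had an unadjusted p under 0.05, against 1541 of all genes, and DESeq2 called 1 collagen and 317 genes. The log2 differences of 9 collagens lay above 0 and those of 3 below, with a median of 0.29 against -0.027 over all genes tested. With scaling by library totals alone, the median of all genes moved to -0.27, and the calls turned to 43 higher and 754 lower. Members that pass the filter on low counts can do so through the group in which they are high, so the median describes the members tested and not the family. In bulk tissue, fewer cells of a type and less RNA per cell cannot be told apart.

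Col1a2 had 15.2, 14.9 and 12.2 CPM in control mice 1 to 3, on libraries scaled by TMM, the trimmed mean of M-values. In nanoplastics mice 1 to 4 it had 26.7, 20.8, 17.5 and 27.8 CPM. All 4 nanoplastics hearts lay above all 3 controls, with means of 23.2 ± 4.90 (SD, n = 4) and 14.1 ± 1.67 (SD, n = 3). The log2 difference was 0.72 (SE 0.194, 1.65-fold), at an adjusted p of 0.0501 in edgeR's test, so the gene lay at the threshold without passing it.

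The position of Col1a2 at the threshold depended on the setting. Its adjusted p was 0.0319 with DESeq2, 0.0448 with the RLE size factors of edgeR, 0.0346 with no filter on low counts and 0.0341 without nanoplastics mouse 3. With library totals alone the log2 difference was 0.48 (adjusted p = 0.126), which is 0.75 above the median of all genes under that scaling. With the section as a term in limma voom it was 0.48 (adjusted p = 0.226). Without the atrial library of nanoplastics mouse 1 and the shallow library (chosen as an alternative once the data were seen), it was 0.54 (adjusted p = 0.169). In the sums of both ventricles only, chosen likewise, it was 0.32 (adjusted p = 0.651).

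Other measures moved with this difference, and their part in it was not tested beyond those alternatives. The share of counts from the section labelled atrial was 19.0%, 20.2% and 42.4% in the control hearts and 27.6%, 55.3%, 30.4% and 62.6% in the nanoplastics hearts. The transcript length per count had a median of 1697 to 1785 nt in control and 1445 to 1581 nt in nanoplastics hearts. With the trend over length removed, the log2 difference of Col1a2 was 0.83 (adjusted p = 0.0551 in edgeR's test). Of 10 fibroblast markers 9 were tested, all 9 had a log2 difference above 0, and 1 (Dcn, 0.55, adjusted p = 0.0466) was called, beside 2.56% of all genes. The summed level of all 10 fibroblast markers was 1354 to 1508 CPM in control and 1696 to 2451 CPM in nanoplastics hearts. This sum held 21212 counts in control and 22072 in nanoplastics hearts. Dcn alone made up 26105 of them, so the sum is not separate from Dcn. The call of Dcn was lost when any mouse other than nanoplastics mouse 4 was left out, with adjusted p-values of 0.0344 to 0.207. It was also lost with library totals alone (0.30, or 0.57 above the median of all genes, adjusted p = 0.141), without the atrial library of nanoplastics mouse 1 and the shallow library (0.51, adjusted p = 0.0587) and in both ventricles only (0.46, adjusted p = 0.0873).

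Of 10 endothelial markers, all tested, 0 passed edgeR's test, 2 had an unadjusted p under 0.05 and 7 lay below 0, with a summed level of 1107 to 1161 CPM in control and 1229 to 1372 CPM in nanoplastics hearts. Of 8 smooth muscle and pericyte markers 7 were tested and 0 passed, with 1 at an unadjusted p under 0.05. Of the 7, 5 lay above 0 and 2 below, with a median log2 difference of 0.331. The summed level of all 8 was 339.2 to 507.6 CPM in control and 276.1 to 445.9 CPM in nanoplastics hearts. Adipocyte markers summed to at most 7.94 CPM in control and 10.6 CPM in nanoplastics hearts, and mesothelial markers to at most 6.36 and 10.9 CPM, too low for any of these genes to be tested. Schwann cell markers summed to at most 6.03 CPM in any heart and were not tested either. Of 7 macrophage markers tested, 0 passed and 0 had an unadjusted p under 0.05, with a summed level of 407.4 to 819.0 CPM in control and 478.1 to 956.4 CPM in nanoplastics hearts. Of 4 atrial muscle markers tested, 0 passed and 0 had an unadjusted p under 0.05, but all 4 lay above 0, with a median log2 difference of 6.32. The summed level of all 5 listed atrial muscle markers was 25.4 to 80.9 CPM in control hearts and 12390, 60.5, 29.6 and 2402 CPM in nanoplastics mice 1 to 4. Nanoplastics mice 1 and 4, with the most atrial muscle RNA, also had the highest Col1a2 levels. Nanoplastics mice 2 and 3 lay within the control range of this sum, yet above every control for Col1a2, at 20.8 and 17.5 CPM. The part of atrial muscle RNA in the Col1a2 difference was not tested beyond the alternatives above. Of 3 ventricular muscle markers tested, 1 passed, the myosin light chain gene Myl2 (0.54, adjusted p = 0.02497 in edgeR's test), beside 2.56% of all genes. The other 2 lay below 0, and the median log2 difference of the 3 was -0.206.

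Col1a1 had 3.53, 1.63 and 1.74 CPM in control mice 1 to 3, from 20, 9 and 6 counts. In nanoplastics mice 1 to 4 it had 7.91, 1.85, 5.48 and 6.03 CPM, from 21, 4, 15 and 21 counts. Nanoplastics mouse 2 lay among the controls, and the other nanoplastics hearts above all of them. The log2 difference was 1.19 (SE 0.389, 2.29-fold), which did not pass edgeR's test (adjusted p = 0.0994). Without the atrial library of nanoplastics mouse 1 and the shallow library it was 0.79 (adjusted p = 0.359).

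Col3a1 had 20.7, 24.3 and 16.8 CPM in the control hearts. In the nanoplastics hearts it had 23.4, 25.4, 20.8 and 27.0 CPM. The groups overlapped, and the log2 difference was 0.22 (SE 0.177, 95% interval -0.15 to 0.59, adjusted p = 0.571 in edgeR's test). With library totals alone the difference was -0.023, which is 0.25 above the median of all genes under that scaling. Col5a2, a chain of the type V collagen that sets fibril diameter, had 3.18, 3.99 and 5.50 CPM in control and 4.14, 3.23, 5.11 and 3.44 CPM in nanoplastics hearts. Its log2 difference was -0.035 (interval -0.68 to 0.61).

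Type I chains took a larger part of the collagen counts in nanoplastics hearts. Col1a1 and Col1a2 together made up 15.1% to 19.5% of collagen counts in the 3 control hearts and up to 27.1% in the nanoplastics hearts, all 4 of which lay above every control. Pooled over mice the shares were 17.3% (Clopper-Pearson 95% interval 15.3 to 19.3) and 24.0% (interval 21.7 to 26.4). Against Col3a1 alone, Col1a2 took 38.0% to 42.4% of the pair's counts in control hearts and 45.0% to 53.4% in nanoplastics hearts. The summed level of the 10 fibrillar genes was 39.9 to 46.8 CPM in control and 53.1 to 67.4 CPM in nanoplastics hearts. The sum over all collagens was 92.3 to 100.9 CPM and 105.9 to 134.6 CPM. Within each section the fibrillar sums of control and nanoplastics libraries overlapped. They were 47.17 to 80.58 against 64.25 to 134.6 CPM in the section labelled atrial, and 35.97 to 44.68 against 32.26 to 69.69 CPM in the right ventricle. In the left ventricle they were 27.65 to 45.27 against 30.64 to 62.77 CPM. These shares and sums are descriptions without a test.

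Shares and summed levels of a whole heart combine 3 libraries and so also move with the section mix given above. Over pooled libraries the type I share was 24.4% in the section labelled atrial, 17.4% in the right and 17.0% in the left ventricle. These pools hold the treatments in unequal parts, so section and treatment are mixed in them. Control and nanoplastics libraries gave 490 and 796 collagen counts in the section labelled atrial, and 515 and 164 in the right ventricle. All 4 nanoplastics hearts drew a larger part of their counts from the section labelled atrial than 2 of the 3 controls did. In that section the share was 14.7% to 23.4% in control and 25.6% to 30.7% in nanoplastics libraries, which did not overlap. In the ventricles the groups overlapped, at 13.5% to 18.7% against 14.7% to 25.4% on the right and 8.57% to 16.8% against 10.2% to 24.0% on the left. The control ranges also overlap between the sections. The share of Col1a2 in its pair with Col3a1 was, over the same pooled libraries, 50.2% in the section labelled atrial, 39.7% in the right and 40.2% in the left ventricle. It overlapped between control and nanoplastics libraries in every section, for example at 22.2% to 38.9% against 31.0% to 56.8% in the left ventricle. The part of the section mix in the difference between whole hearts was not tested.

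**Figure D1:**
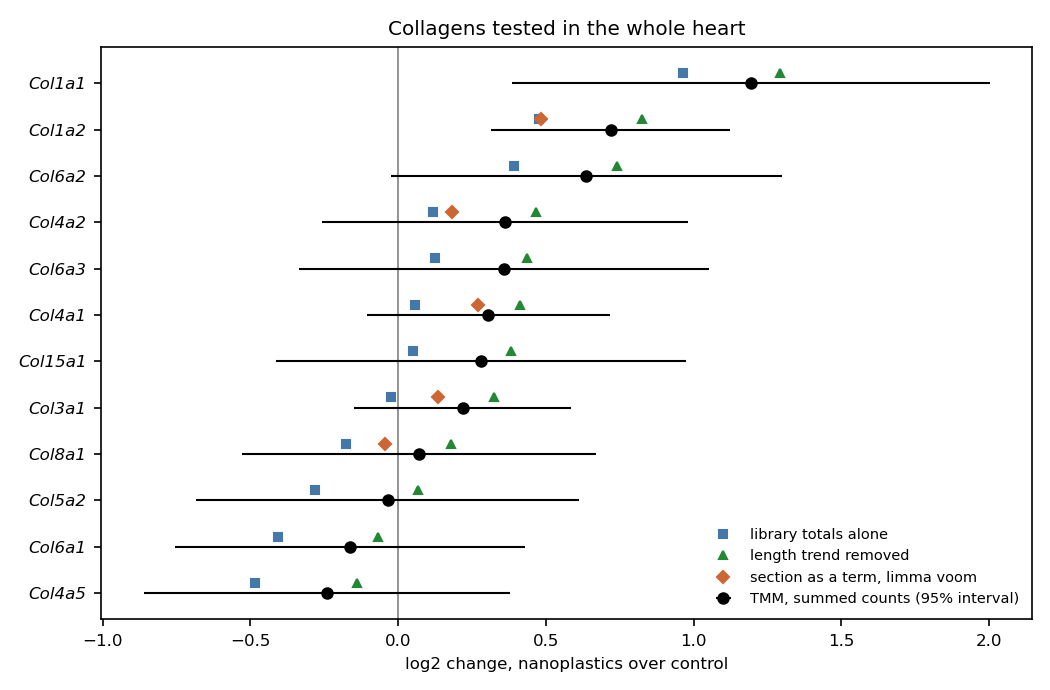
The log2 difference between nanoplastics and control hearts is plotted for the 12 collagens tested, with a 95% interval for the summed counts scaled by TMM and further symbols for other settings. Col1a1 (1.19) and Col1a2 (0.72) are the intervals that stay above 0, and library totals alone (squares) place every gene lower, with Col3a1 at -0.023.

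None of the 3 genes of the basement membrane network that were tested passed, nor did Col15a1. Col4a1 had 11.5, 17.0 and 12.2 CPM in control hearts and 16.6, 19.9, 15.7 and 15.8 CPM in nanoplastics hearts. Control mouse 2 lay among the nanoplastics hearts, and the log2 difference was 0.30 (SE 0.198, interval -0.11 to 0.72, adjusted p = 0.450 in edgeR's test). Col4a2 had 5.47, 7.26 and 6.08 CPM in control and 8.66, 6.01, 4.01 and 12.6 CPM in nanoplastics hearts, which span the controls on both sides. Its log2 difference was 0.36 (SE 0.298, adjusted p = 0.575), and -0.015 without nanoplastics mouse 4. Col4a5, the X-linked chain of the basement membrane network, had 3.88, 5.08 and 5.50 CPM in control and 3.39, 6.01, 3.65 and 3.44 CPM in nanoplastics hearts. Here nanoplastics mouse 2 was the highest of all 7 hearts while the other nanoplastics hearts lay below every control, and the log2 difference was -0.24 (adjusted p = 0.732). Col15a1, a proteoglycan-like collagen of vascular and muscle basement membranes, had 3.53, 3.45 and 2.60 CPM in control and 3.77, 4.62, 2.19 and 5.17 CPM in nanoplastics hearts, with a log2 difference of 0.28 (adjusted p = 0.719).

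The 3 type VI chains tested did not share a direction. Col6a1 had 4.94, 5.62 and 5.50 CPM in control and 6.03, 3.23, 3.29 and 6.03 CPM in nanoplastics hearts, with a log2 difference of -0.16 (adjusted p = 0.819 in edgeR's test). Col6a2 had 3.18, 2.54 and 4.34 CPM in control and 7.16, 4.16, 3.65 and 5.17 CPM in nanoplastics hearts, with a log2 difference of 0.64 (adjusted p = 0.297). Col6a3 had 3.18, 2.54 and 3.18 CPM in control and 3.77, 2.31, 4.75 and 4.02 CPM in nanoplastics hearts, with a log2 difference of 0.36 (adjusted p = 0.629). Each of these 3 genes overlapped between the groups. Col8a1, a short-chain collagen of vessel walls and the subendothelium, had 4.41, 4.54 and 7.81 CPM in control and 7.16, 6.47, 4.38 and 4.88 CPM in nanoplastics hearts, with a log2 difference of 0.071 (adjusted p = 0.932).

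The 22 members that did not pass the filter in the whole heart summed to 7.98 to 13.4 CPM in control and 9.04 to 15.3 CPM in nanoplastics hearts. The most frequent was Col14a1, a fibril-associated collagen that regulates fibril growth, with 69 counts and 1.45 to 3.18 CPM in control against 3.01 to 3.29 CPM in nanoplastics hearts. Col4a4 had 41 counts, at 1.09 to 2.02 CPM and 1.39 to 2.01 CPM. Col5a1, the major type V chain, had 40 counts, at 0.363 to 2.60 CPM and 0.753 to 3.29 CPM. Col18a1, the source of endostatin, had 19 counts, at most 1.59 CPM in control and 1.09 CPM in nanoplastics hearts. Col5a3, Col6a6, Col23a1 and Col4a3 had 23, 17, 16 and 11 counts. Another 10 members had 2 to 9 counts, namely Col16a1, Col27a1, Col13a1, Col12a1, Col28a1, Col8a2, Col11a1, Col11a2, Col22a1 and Col4a6. The remaining 4, Col9a3, Col2a1, Col26a1 and Col25a1, had 1 count each. Differences of these members were not detectable at this depth.

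**Figure D2:**
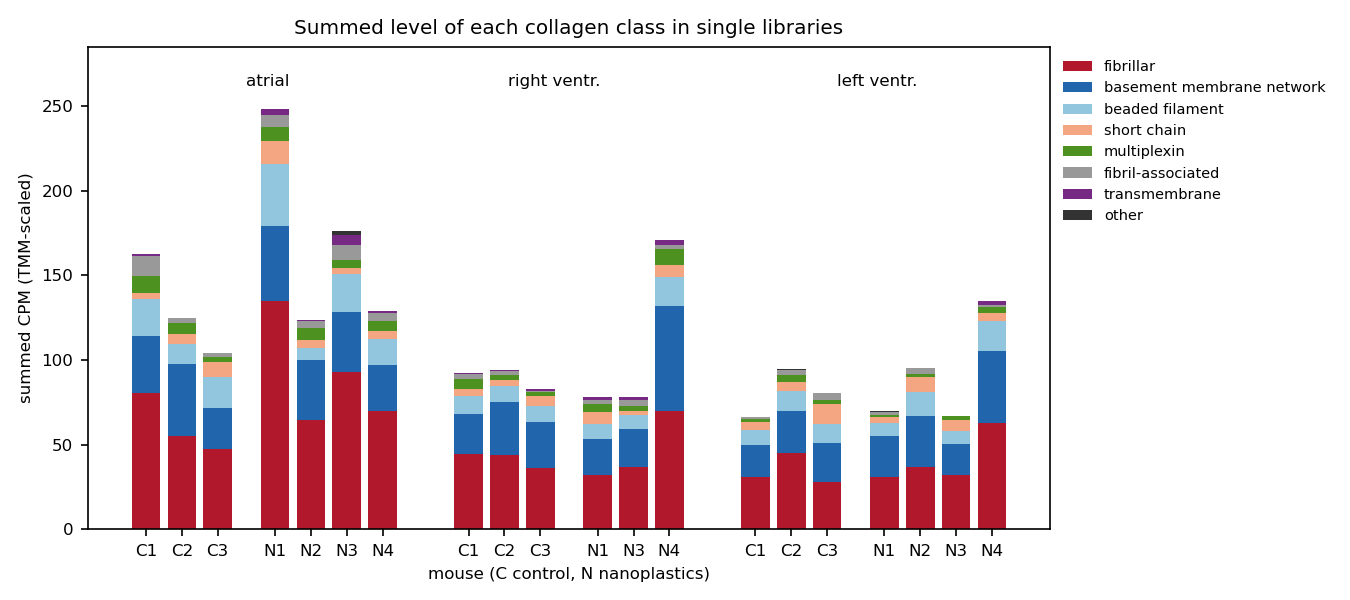
Each bar stacks the summed CPM (TMM-scaled) of the collagen classes in 1 library, for control mice (C) and nanoplastics mice (N) in each section, without the shallow library. Fibrillar and basement membrane genes fill most of each bar, and the atrial library of nanoplastics mouse 1 is the highest at 248.6 CPM.

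Within the section labelled atrial, 4 collagens were tested and 0 of them passed edgeR's test, beside 0 of all 5502 genes (0%). Of the 4 collagens 1 had an unadjusted p under 0.05, against 674 of all genes, and DESeq2 called 0 collagens and 2 genes. Col1a2 had 30.3, 22.4 and 13.9 CPM in control mice 1 to 3 and 54.6, 28.6, 35.2 and 28.6 CPM in nanoplastics mice 1 to 4. Control mouse 1 lay above 2 of the nanoplastics libraries, and the log2 difference was 0.69 (SE 0.303, adjusted p = 0.377). Col3a1 had 31.2, 21.6 and 19.9 CPM in control and 46.1, 27.8, 28.4 and 30.0 CPM in nanoplastics libraries, with a log2 difference of 0.42 (adjusted p = 0.563). Col4a1 (0.16) and Col4a2 (-0.017) lay close to 0, and Col4a2 took either sign under other settings. Col1a1, too low to be tested here, had 9, 2 and 2 counts in control and 18, 4, 12 and 11 counts in nanoplastics libraries.

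The level of Col1a2 and Col3a1 was highest in the atrial library of nanoplastics mouse 1, the library with 39830 CPM of atrial muscle markers. Col1a1 was highest there too, at 21.8 CPM. Without that mouse the log2 difference of Col1a2 in this section was 0.47 (adjusted p = 0.554 in edgeR's test), and it was 0.43 to 0.99 over all mice left out in turn. The summed level of all collagens in this section was 104.3 to 162.9 CPM in control and 123.7 to 248.6 CPM in nanoplastics libraries.

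In the right ventricle, with 3 libraries per group, 3 collagens were tested and 0 passed edgeR's test, beside 68 of all 5201 genes (1.31%, of which 58 higher and 10 lower). None of the 3 had an unadjusted p under 0.05, against 758 of all genes, and DESeq2 called 0 collagens and 140 genes. With library totals alone, 9 genes were higher and 142 lower. Col1a2 had 13.7, 10.7 and 12.4 CPM in control mice 1 to 3 and 11.5, 10.5 and 36.0 CPM in nanoplastics mice 1, 3 and 4. Its log2 difference of 0.51 (adjusted p = 0.616) rested on nanoplastics mouse 4, without which it was -0.18. Col3a1 had 21.9, 26.0 and 13.7 CPM in control and 18.4, 17.1 and 19.2 CPM in nanoplastics libraries, with a log2 difference of -0.22 (adjusted p = 0.826). Col4a1 had 12.3, 15.3 and 13.1 CPM in control and 9.22, 14.5 and 21.6 CPM in nanoplastics libraries, with a log2 difference of 0.12 (adjusted p = 0.926) that was -0.13 without nanoplastics mouse 4. That mouse also had 13 counts of Col4a2 (31.2 CPM), against 3 and 1 counts in the other 2 nanoplastics libraries. Its library held 125.0 CPM of atrial muscle markers, against 18.5 to 24.0 CPM in the 5 others, and the part of this in the result was not tested.

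In the left ventricle 3 collagens were tested and 0 passed edgeR's test, beside 3 of all 5440 genes (0.0551%). None of the 3 had an unadjusted p under 0.05, against 768 of all genes, and DESeq2 called 0 collagens and 52 genes. Col4a1 had 8.24, 14.2 and 13.8 CPM in control mice 1 to 3 and 13.9, 15.1, 11.5 and 21.7 CPM in nanoplastics mice 1 to 4, with a log2 difference of 0.37 (SE 0.312, adjusted p = 0.631). Col1a2 had 9.11, 14.7 and 4.61 CPM in control and 14.6, 9.72, 7.94 and 22.8 CPM in nanoplastics libraries, with a log2 difference of 0.27 (adjusted p = 0.767) that was -0.012 without nanoplastics mouse 4. Col3a1 had 14.3, 24.3 and 16.1 CPM in control and 11.1, 21.6, 16.7 and 24.0 CPM in nanoplastics libraries, with a log2 difference of -0.11 (adjusted p = 0.900). All 3 genes overlapped between the groups. The library of nanoplastics mouse 4, highest for Col4a1 and Col1a2, held 1715 CPM of atrial muscle markers, against at most 57.6 CPM in the 6 others, and the part of this was not tested either.

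**Figure D3:**
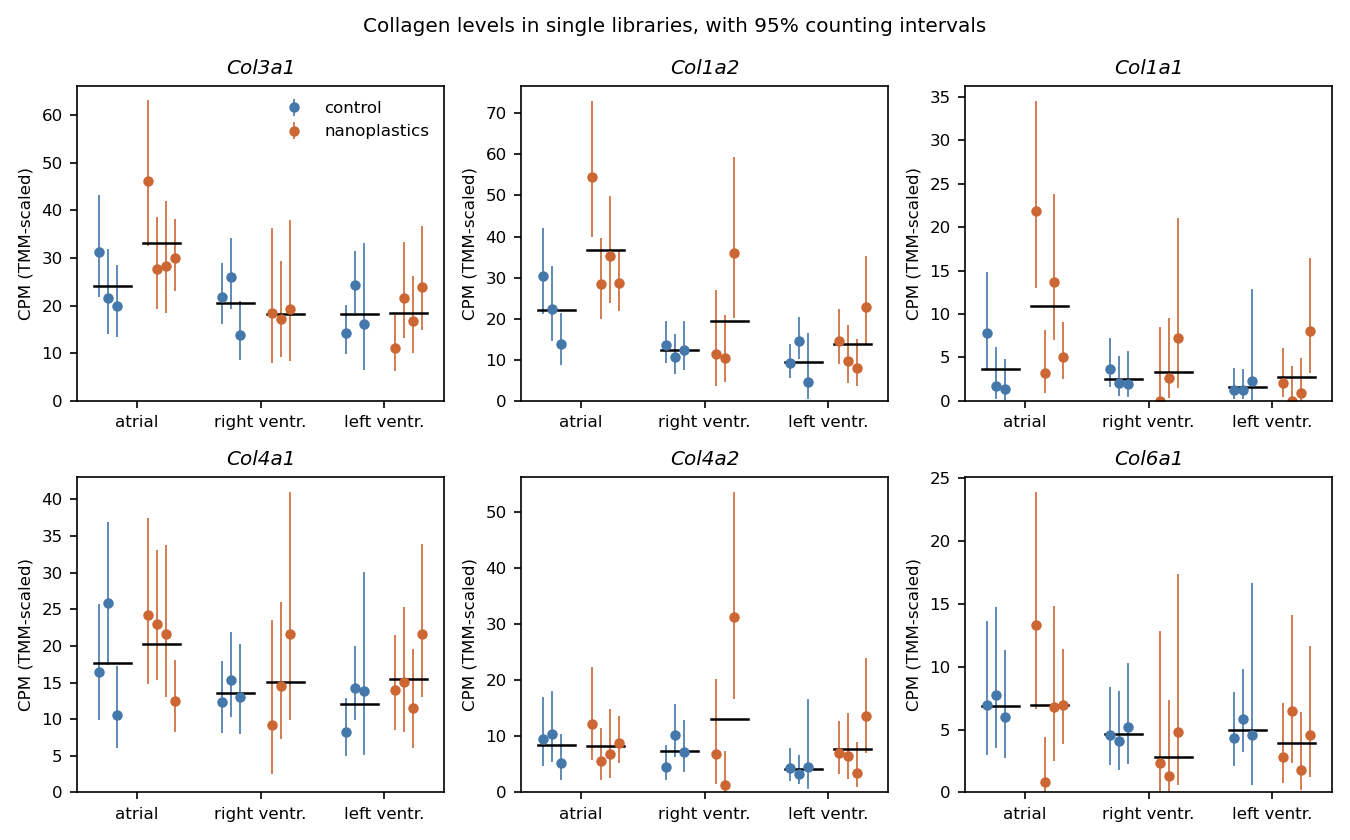
CPM (TMM-scaled) of 6 collagens is plotted for each library by section, with 95% counting intervals and a bar at each group mean. Control and nanoplastics libraries overlap in each ventricle, and the highest Col3a1, Col1a2 and Col1a1 values (46.1, 54.6 and 21.8 CPM) belong to the atrial library of nanoplastics mouse 1.

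Col1a1 was listed at 0 in 2 of the 20 deeper libraries, the right ventricular library of nanoplastics mouse 1 and the left ventricular library of nanoplastics mouse 2. A count of 0 in these libraries allows a level of up to 6.91 and 3.24 CPM, respectively, on the TMM-scaled library sizes. Both limits lie above the control levels of the same section, 1.96 to 3.65 CPM in the right and 1.26 to 2.30 CPM in the left ventricle, so a loss of Col1a1 was not detectable there.

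Whether the nanoplastics difference itself varied between sections was tested as an interaction with the mouse as a block. For the section labelled atrial against the left ventricle, 0 of 5 collagens passed edgeR's test, beside 1 of all 6514 genes (0.0154%), with 0 collagens and 333 genes at an unadjusted p under 0.05, and with 0 collagens and 1 gene called by DESeq2. The values ran from -1.10 for Col4a2 (SE 0.667, interval -2.45 to 0.25) to 0.39 for Col8a1, and Col1a2 had 0.31 (SE 0.476). For the right against the left ventricle, 0 of 5 collagens and 0 of all 6514 genes passed (0%), with 0 collagens and 186 genes at an unadjusted p under 0.05, and DESeq2 called 0. Col1a2 had 0.13 there (interval -1.03 to 1.28). The intervals are wide, so a difference between sections was not detectable at this depth.

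Between sections of the same heart, Col1a2 was higher in the section labelled atrial than in the left ventricle. Of 3 collagens tested, 1 passed edgeR's test with the mouse as a block, beside 8 of all 5176 genes (0.155%), all 8 of which were higher in the section labelled atrial. All 3 collagens had an unadjusted p under 0.05, against 652 of all genes, and DESeq2 called 8 genes. Col1a2 rose by 1.34 on the log2 scale (SE 0.218, 2.54-fold, adjusted p = 0.0165). Its level was higher in the section labelled atrial in 7 of 7 mice, with ratios from 1.25 to 4.44 and a median of 3.03. The control libraries held 30.3, 22.4 and 13.9 CPM in the section labelled atrial and 9.11, 14.7 and 4.61 CPM in the left ventricle of the same mice. The call was lost without control mouse 1 (1.25, adjusted p = 0.164), nanoplastics mouse 2 (1.30, adjusted p = 0.121) or nanoplastics mouse 3 (1.23, adjusted p = 0.186), in control mice only (1.19, adjusted p = 0.0695) and without the mouse block (1.28, adjusted p = 0.0597).

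Col3a1 and Col4a1 had smaller values in this comparison that did not pass. Col3a1 had a log2 difference of 0.69 (SE 0.212, adjusted p = 0.180 in edgeR's test) and was higher in the section labelled atrial in 6 of 7 mice. Col4a1 had 0.51 (SE 0.225, adjusted p = 0.351) and was higher in 5 of 7 mice. The fibrillar genes made up 68.7% of fibrillar and basement membrane counts in the section labelled atrial (Clopper-Pearson 95% interval 65.7 to 71.7), 60.1% in the right ventricle (interval 55.7 to 64.3) and 60.8% in the left ventricle (interval 56.8 to 64.8), over pooled libraries. These pools hold the treatments in unequal parts, and the intervals leave out the spread between mice. In control libraries alone the shares overlapped, at 56.64% to 70.45%, 56.7% to 65.77% and 54.55% to 65.06% in the same order. In nanoplastics libraries they were 64.29% to 75.0%, 52.73% to 62.22% and 54.84% to 63.16%. Between the section labelled atrial and the left ventricle, 6 fibroblast markers were tested and 0 passed. Of these, 4 had an unadjusted p under 0.05 and all 6 lay above 0, with a median of 0.41. Over all genes, 652 of 5176 had an unadjusted p under 0.05 in this comparison. Of 5 macrophage markers 0 passed, while all 5 lay above 0 with an unadjusted p under 0.05 and a median of 0.36. Of 4 smooth muscle and pericyte markers 0 passed, 2 had an unadjusted p under 0.05 and 3 lay above 0, with a median of 1.00. All 3 atrial muscle markers tested lay above 0 (median 3.43), with 0 passing and 0 at an unadjusted p under 0.05. The part of these cell types in the result was not tested.

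Against the right ventricle, 3 collagens were tested and 0 passed, beside 3 of all 5072 genes (0.0591%). Of the 3 collagens 2 had an unadjusted p under 0.05, against 325 of all genes, and DESeq2 called 0 collagens and 4 genes. Col1a2 had a log2 difference of 0.93 (SE 0.253, adjusted p = 0.249 in edgeR's test) and was higher in the section labelled atrial in 5 of 6 mice. The exception was nanoplastics mouse 4, without which the difference was 1.18 and passed (adjusted p = 0.00612). Col3a1 had 0.50 (adjusted p = 0.697) and Col4a1 0.35 (adjusted p = 0.848).

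Right and left ventricle did not separate by collagens. Of 3 collagens 0 passed edgeR's test, beside 0 of all 5382 genes (0%), with 0 collagens and 270 genes at an unadjusted p under 0.05, and DESeq2 called 0. Col1a2 had a log2 difference of 0.24 (interval -0.21 to 0.69), Col3a1 0.22 (interval -0.17 to 0.60) and Col4a1 0.16 (interval -0.27 to 0.59). For Col1a2, then, the contrast of the section labelled atrial with the left ventricle passed, and those with the right ventricle and between the ventricles did not.

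**Figure D4:**
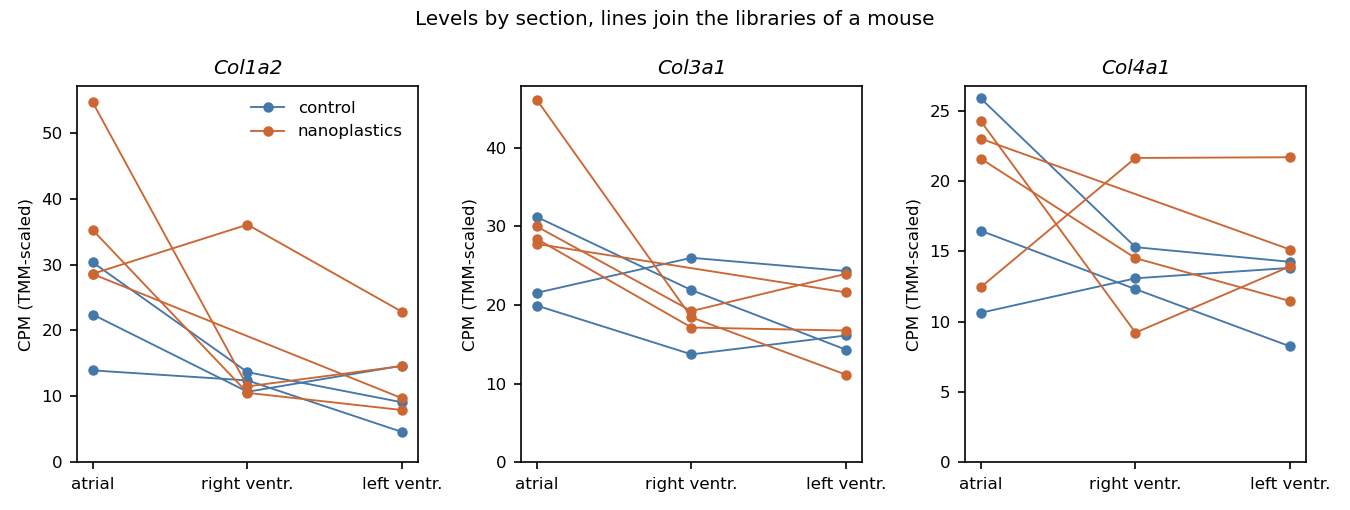
CPM (TMM-scaled) of Col1a2, Col3a1 and Col4a1 is plotted by section, with a line joining the libraries of each mouse and the shallow library left out. Every Col1a2 line lies higher in the section labelled atrial than in the left ventricle, with ratios of 1.25 to 4.44, while some Col3a1 and Col4a1 lines run the other way.

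Collagen chains are hydroxylated, folded, trimmed and cross-linked by dedicated proteins, and a list of 54 genes for these steps and for collagen binding, breakdown and receptors was examined beside the collagens. Of the 51 found in the table, 28 were tested in the whole heart, and 1 passed as higher and 0 as lower. Over all genes, 217 of 8485 (2.56%) passed. The median log2 difference of the list was -0.032 against -0.027 over all genes. The gene of the list that passed was Ppib, the endoplasmic reticulum cyclophilin of the prolyl hydroxylation complex. Ppib had 55.4, 58.9 and 54.1 CPM in control and 91.2, 75.8, 69.0 and 90.4 CPM in nanoplastics hearts, which did not overlap. It rose by 0.54 on the log2 scale (SE 0.143, adjusted p = 0.0466 in edgeR's test). The call was lost when any mouse other than nanoplastics mouse 3 was left out (adjusted p = 0.0406 to 0.167), with library totals alone (0.29, or 0.56 above the median of all genes, adjusted p = 0.185), with no filter on low counts (0.51, adjusted p = 0.0502), without the atrial library of nanoplastics mouse 1 and the shallow library (0.49, adjusted p = 0.0587) and in both ventricles only (0.50, adjusted p = 0.142).

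Serpinh1, the collagen-specific chaperone HSP47, went the other way without passing. It had 46.8, 43.4 and 38.8 CPM in control hearts and 27.9, 31.0, 29.9 and 29.0 CPM in nanoplastics hearts, so every nanoplastics heart lay below every control. The log2 difference was -0.55 (SE 0.149, adjusted p = 0.0504 in edgeR's test). It passed with the section as a term in limma voom (-0.62, adjusted p = 0.00624), with library totals alone (-0.79, and -0.52 relative to the median of all genes, adjusted p = 0.00992), with no filter on low counts (-0.58, adjusted p = 0.0438), in both ventricles only (-0.81, adjusted p = 0.0273) and without the atrial library of nanoplastics mouse 1 and the shallow library (-0.59, adjusted p = 0.0398). With DESeq2 its adjusted p was 0.0559, and 5 of 17 alternatives passed in all. With any mouse left out it did not pass (-0.61 to -0.46, adjusted p = 0.0780 to 0.2025 in edgeR's test).

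Within sections the Serpinh1 level was lower in nanoplastics libraries without overlap, in each ventricle and, by a narrow margin, in the section labelled atrial. In the left ventricle it was 47.3, 51.1 and 41.5 CPM in control and 22.3, 21.6, 29.1 and 24.0 CPM in nanoplastics libraries, with a log2 difference of -0.99 (SE 0.217, adjusted p = 0.0773 in edgeR's test) that passed without control mouse 3 (-1.02, adjusted p = 0.0352). In the right ventricle it was 41.0, 37.2 and 36.6 CPM in control and 25.4, 25.1 and 24.0 CPM in nanoplastics libraries, with a log2 difference of -0.64 (adjusted p = 0.254). In the section labelled atrial it was 57.2, 37.9 and 39.9 CPM in control and 37.6, 37.3, 34.1 and 32.3 CPM in nanoplastics libraries. The log2 difference there was -0.37 (adjusted p = 0.548).

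The other genes of the list that were followed whatever they did had small or uncertain differences in the whole heart. P4ha1, a catalytic subunit of prolyl hydroxylase, had a log2 difference of -0.047 (adjusted p = 0.935 in edgeR's test). Sparc, a collagen-binding matricellular protein, had -0.068 (adjusted p = 0.839). The gelatinase gene Mmp2 had 0.33 (adjusted p = 0.508), and the collagen receptor gene Ddr2 had -0.071 (adjusted p = 0.935). Lox, the lysyl oxidase that cross-links fibres, was too low to be tested, at 0.579 to 1.45 CPM in control and 1.13 to 1.46 CPM in nanoplastics hearts. Its relative Loxl1 had 0.71 (SE 0.275, adjusted p = 0.165).

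Between treatments, 22 genes of the list in the section labelled atrial, 19 in the right and 20 in the left ventricle were tested and 0 passed, with 1, 2 and 2 at an unadjusted p under 0.05. Between the section labelled atrial and the left ventricle 18 were tested and 2 passed as higher, Sparc (0.60, SE 0.111, adjusted p = 0.0327 in edgeR's test) and Timp3 (0.96, SE 0.185, adjusted p = 0.0327), an inhibitor of metalloproteinases. Over all genes, 8 of 5176 (0.155%) passed in this comparison. Sparc had 94.4 to 132.2 CPM in the section labelled atrial and 64.2 to 92.6 CPM in the left ventricle, without overlap. Timp3 had 33.6 to 89.2 and 22.7 to 41.5 CPM, which overlap. As for Col1a2, both calls were lost without control mouse 1 (0.54 and 0.77), nanoplastics mouse 2 (0.62 and 0.92) or nanoplastics mouse 3 (0.58 and 0.91), and without the mouse block, and that of Sparc also without control mouse 2 (0.61, adjusted p = 0.0562). Against the right ventricle 0 of 18 passed, with 6 at an unadjusted p under 0.05, and between the ventricles 0 of 20, with 3.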

How the data were processed

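Bulk RNA of 21 heart sections from 7 mice was measured with a plate-based kit that captures polyadenylated RNA and adds well barcodes by template switching, per the labels' protocols. The authors deposited whole-number counts per gene symbol. STAR, an aligner of reads, is named in the submitters' processing notes. The sources used here do not give the genome build, the counting program or the use of strand and molecular identifiers. Genes that share sequence or overlap are therefore uncertain.

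Collagens, classes, the processing list and the marker lists were chosen with earlier results of these data known. Values per mouse are given for those of 14 listed vascular and interstitial collagens that pass the filter and for any other called member. All called genes of the processing list and Serpinh1, P4ha1, Lox, Sparc, Mmp2 and Ddr2 are named. Loxl1 and Dcn were added after their values were seen.

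The analysis used edgeR 4.0.16 under R 4.3.3 (filterByExpr defaults, TMM, robust quasi-likelihood test, Benjamini-Hochberg over all genes tested, called at an adjusted p under 0.05). limma 3.58.1 and DESeq2 1.42.0 gave alternatives. Levels are CPM over TMM-scaled library sizes. Treatments were compared over mice, and sections within mice, with a term for each mouse, because its 3 libraries are from 1 animal. Transcript lengths came from GENCODE M21 and upstream sequences from RefSeq (GRCm38.p6). Mouse chromosome 18 was left out of the motif shares. Between libraries of a group, 24 pairs without the shallow library had a chi-square per degree of freedom of at least 1.98, and 0 of 210 pairs were identical. The edgeR steps were also run on simulated counts with known changes, drawn at the fitted spread. Those counts held no differences in section mix, and the outcome is not given here.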

Additional observations from a re-analysis of the deposited data

Results flagged for a closer look

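In 63 groups of 4 nanoplastics samples, 5 had a highest sample that stood apart by Dixon's ratio, where chance gives about 1 group in 20. Col3a1 in the section labelled atrial was 46.1 CPM in nanoplastics mouse 1, against 27.8 to 30.0 CPM in the other nanoplastics libraries. Col8a1 in the same library was 13.3 CPM, which also sets the short-chain sum of 13.3 CPM. Col4a5 in the whole heart was 6.01 CPM in nanoplastics mouse 2, against 3.39 to 3.65 CPM. The transmembrane collagens in the left ventricle summed to 2.28 CPM in 1 nanoplastics library, from 2 counts, and to 0 in the others. Explanations for these samples were not tested.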

How the results depend on the processing

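Over 635 single-gene values under an alternative, 543 kept direction and side of the threshold, 15 came to pass, 36 no longer passed and 41 had the opposite sign, none of them for a gene with an adjusted p under 0.1. The number of collagens called in the whole heart (0) became 1 with RLE size factors, with no filter on low counts and with DESeq2, and was 0 to 1 over the mice left out. Between the section labelled atrial and the left ventricle (1) it became 2 with no filter, 0 with no replicate block and 0 in control mice only, and was 0 to 1 over the mice left out. Between the section labelled atrial and the right ventricle (0) it became 1 with no filter and 1 with the shallow library, and was 0 to 1. In these cases the cause was not tested. In the other comparisons no alternative called a collagen.

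Opposite signs in the whole heart were Col5a2 with the length trend removed (0.068), Col3a1 with library totals alone (-0.023) and in both ventricles (-0.14), Col4a5 in both ventricles (0.022), Col8a1 with totals alone (-0.18), limma voom (-0.046) and without the atrial-rich and shallow libraries (-0.099), P4ha1 with the length trend removed (0.052) and in both ventricles (0.105), and Ddr2 with the replicate block (0.049) and the length trend removed (0.024). In the section labelled atrial they were Col4a1 with totals alone (-0.070) and Col4a2 with RLE (0.0054), no filter (0.031), DESeq2 (0.00052) and the length trend removed (0.19). In the right ventricle they were Col4a1 with totals alone (-0.15) and, with the replicate block, Col3a1 (0.018), Col1a2 (-0.27) and Col4a1 (-0.091). Over the mice left out, signs turned for Col5a2 (-0.19 to 0.16), Col4a2 (-0.015 to 0.59), Col8a1 (-0.055 to 0.34), P4ha1 (-0.18 to 0.21) and Ddr2 (-0.26 to 0.21) in the whole heart, Col4a1 (-0.12 to 0.55) and Col4a2 (-0.28 to 0.17) in the section labelled atrial, Col1a2 (-0.18 to 0.91) and Col4a1 (-0.13 to 0.32) in the right ventricle, and Col3a1 (-0.32 to 0.25) and Col1a2 (-0.012 to 0.71) in the left ventricle.

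Genes called of all tested also moved. In the whole heart (217) there were 797 with totals alone, 482 with limma voom, 63 with the length trend removed, 137 in both ventricles and 0 to 201 over the mice left out, with 0 without control mouse 2. In the right ventricle (68) there were 151 with totals alone, 41 with no filter, 140 with DESeq2, 20 with the length trend removed, 39 with the shallow library and 0 to 326 over the mice left out. In the left ventricle (3) there were 23 with totals alone (0 higher), 30 with no filter, 52 with DESeq2, 5 with the length trend removed, 0 with the replicate block and 0 to 21. In the section labelled atrial (0) there were 17 with no filter, 2 with DESeq2 and 0 to 1. Between that section and the left ventricle (8) there were 42 with totals alone, 115 with no filter, 17 in control mice only, 0 with no replicate block and 0 to 98. Against the right ventricle (3) there were 5, 55, 11 and 0, 30 with the shallow library, and 1 to 39. Between the ventricles (0) there were 2 with no filter and 1 with the shallow library, and for the difference of the nanoplastics effect between the section labelled atrial and the left ventricle (1) there were 3 with no filter and 0 to 3 over the mice left out.

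The labels do not say that the replicate numbers pair treated and control mice. Deviations of same-numbered mice correlated at 0.071, 0.040 and -0.084 over 4034 genes. Those of differently numbered mice ran from -0.437 to 0.339, so these values cannot exclude a pairing. With the number as a replicate block, 0 collagens were called in each treatment comparison, Col1a2 in the whole heart had 0.62 (adjusted p = 0.0912 in edgeR's test), and Ppib had 0.48 (adjusted p = 0.0732), while 106 genes were called in the section labelled atrial. The alternatives without the atrial-rich library and in both ventricles were chosen after seeing the data. Limits are the depth, with 12 of 34 collagens testable in the whole heart and 3 or 4 in a section, 3 or 4 mice per group, and groups that differ in section mix.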
